A study of Mus musculus with 6 samples.

Results

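The transcripts examined were those of 9 genes that regulate the antioxidant response in mouse cells, namely Nfe2l2, which encodes the transcription factor Nrf2, its relative Nfe2l1 (Nrf1), the inhibitor Keap1, the small Maf partners Mafg, Maff and Mafk, the repressor Bach1, the adaptor Sqstm1 (p62) and Osgin1. Probes were chosen by the gene name in the array files, which gave 12 probes of 8 genes. Osgin1 is not a gene name in those files. It was added through 3 probes that carry its older name, 1700012B18Rik, and of these 2 also match its RefSeq transcript NM_027950. The set therefore held 15 probes of 9 genes, out of 41174 probes and 27670 gene names on the array.

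Primary mouse embryonic fibroblasts (MEFs), cells grown directly from embryos and not an established line, were left untreated or were kept in 1 mM hydrogen peroxide (H2O2) for 2 h or 4 h. Each of the 3 groups had 2 arrays, which the labels call independent experiments, and the question was how transcript levels differ after oxidative stress. The sources used here give no strain, genotype or embryonic age, and no untreated cells kept for 2 h or 4 h were among the samples, so time in culture and treatment cannot be told apart. Replicate 1 of every group lay on one slide and replicate 2 on the other. A group sat at one fixed position of the slide in both replicates, so position and group cannot be told apart. Results are also given within each slide, which compares arrays of the same slide but does not separate position from group.

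Nrf2 is a transcription factor of the cap'n'collar family that is made continuously and, in unstressed cells, is bound by Keap1 and handed to a Cul3 ubiquitin ligase for degradation. Oxidants modify cysteines of Keap1, newly made Nrf2 then escapes, pairs with a small Maf protein and binds antioxidant response elements near genes for glutathione synthesis, thiol reduction, haem breakdown and iron storage. Small Mafs lack an activation domain of their own, Bach1 competes with Nrf2 for the same elements until haem displaces it, and p62 sequesters Keap1 and carries it to autophagy. Much of this control acts on protein, which these arrays did not measure.

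The promoters are shown first for the genes whose windows held a regulatory motif, because 4 of these 5 genes encode Nrf2 itself or one of its Maf partners. RefSeq windows (GRCm38.p6) from 250 bases before to 50 after each annotated start were searched on both strands for the core of the antioxidant response element, TGACNNNGC, and for the AP-1 site TGACTCA, which can overlap the core when GC follows it. All 9 genes matched, with 15 windows. The core was in the windows of 4 of the 9 genes, against 13.991% of 27025 genes with such windows, and the AP-1 site was in 1 of the 9, against 5.946%. Nfe2l2 (chr2:75704664-75704913, minus strand) had its match from -240 to -232 relative to the start. Mafg (chr11:120633548-120633797, minus strand) and Mafk (chr5:139791286-139791535, plus strand) had theirs on the opposite strand, so the capitals there show the reverse complement. In Maff (chr15:79346371-79346620, plus strand) the match lay at the first of 3 annotated starts, and the windows of the other two held none. Osgin1 (chr8:119436897-119437146, plus strand) held the AP-1 site. The lines give the 250 bases before each start, 5′ to 3′ on the gene's strand, with the matches in capitals. These matches are letters in a window and not measured binding sites.
Nfe2l2: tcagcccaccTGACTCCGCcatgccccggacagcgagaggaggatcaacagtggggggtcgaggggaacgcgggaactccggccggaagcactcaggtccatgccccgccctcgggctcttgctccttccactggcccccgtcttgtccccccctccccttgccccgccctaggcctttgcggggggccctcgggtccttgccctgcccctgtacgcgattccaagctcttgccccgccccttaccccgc
Mafg: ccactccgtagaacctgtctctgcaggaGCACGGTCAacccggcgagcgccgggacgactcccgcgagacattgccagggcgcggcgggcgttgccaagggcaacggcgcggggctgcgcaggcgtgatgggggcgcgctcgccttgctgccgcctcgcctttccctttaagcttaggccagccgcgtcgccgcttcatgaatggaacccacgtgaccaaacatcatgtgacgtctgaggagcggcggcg
Maff: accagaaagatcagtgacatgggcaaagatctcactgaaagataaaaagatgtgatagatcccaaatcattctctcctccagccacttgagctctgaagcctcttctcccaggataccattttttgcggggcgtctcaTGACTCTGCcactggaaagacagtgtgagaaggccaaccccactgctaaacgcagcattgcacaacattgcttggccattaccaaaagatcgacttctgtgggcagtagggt
Mafk: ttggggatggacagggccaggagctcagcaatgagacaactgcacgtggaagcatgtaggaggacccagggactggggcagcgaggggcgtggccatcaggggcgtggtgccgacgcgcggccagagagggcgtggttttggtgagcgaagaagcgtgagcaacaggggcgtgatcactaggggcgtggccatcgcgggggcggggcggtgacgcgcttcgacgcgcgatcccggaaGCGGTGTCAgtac
Osgin1: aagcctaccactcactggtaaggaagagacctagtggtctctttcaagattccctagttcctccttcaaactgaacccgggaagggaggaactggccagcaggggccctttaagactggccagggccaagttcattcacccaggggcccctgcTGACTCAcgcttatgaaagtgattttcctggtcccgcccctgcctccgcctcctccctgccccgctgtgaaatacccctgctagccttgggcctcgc

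Of the 9 genes, 6 passed the test as higher after 2 h of H2O2 than in untreated cells, and the same 6 passed as higher after 4 h: Nfe2l2, Mafg, Maff, Mafk, Sqstm1 and Osgin1. None passed as lower in limma's fit, where 0 of the 9 were lower even at an unadjusted p under 0.05, and Nfe2l1, Keap1 and Bach1 did not pass in either comparison. In such bulk samples fewer cells of a type and less RNA per cell cannot be told apart. A gene was read by its brightest probe and passed when limma's Benjamini-Hochberg adjusted p, over all 25886 probes tested, was under 0.05. By that rule 37.5% of 17192 genes were called at 2 h (22.7% higher and 14.8% lower), and 41.9% at 4 h (23.9% higher and 18% lower). The share of the regulators that were higher lay above these shares. The regulators were chosen with earlier results of these data known, so this comparison is not a test. It also depended on the scaling, as given below. All 15 probes were tested, none of their spots carried an outlier flag, and 14 were well above background on all 6 arrays. The other, the AK029360 probe of Nfe2l2, passed the filter only through the H2O2 groups and is included in the probe counts. Counted by probe, 11 of 15 were higher at 2 h, when 35.7% of all probes were called (21.2% higher and 14.5% lower), and 12 of 15 at 4 h, when 40.6% were (23% higher and 17.6% lower). The median change of the 9 genes was 0.60 on the log2 scale at 2 h and 0.76 at 4 h, against 0.12 and 0.07 for all genes. The values of the 2 H2O2 arrays and the 2 untreated arrays did not overlap for 8 of the 9 genes at 2 h and for 7 at 4 h. Among all 17192 genes the same held for 12953 at 2 h and 12591 at 4 h.

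Signals are log2 values relative to the 75th percentile of their own array, where 0 means a spot as bright as that percentile. Probes differ in how brightly they bind, so levels of different genes are not compared. The direction of many changes on this array depended on how arrays were scaled, since all genes shifted by a median of 0.12 at 2 h under the 75th percentile and by -0.33 under scaling on the spike-in controls. Among all probes called at 2 h, 59.4% were higher under the 75th percentile, 43.0% under quantile normalization, 30.4% under median centring, 19.8% without scaling and 12.3% under spike-in scaling.

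**Figure D1:**
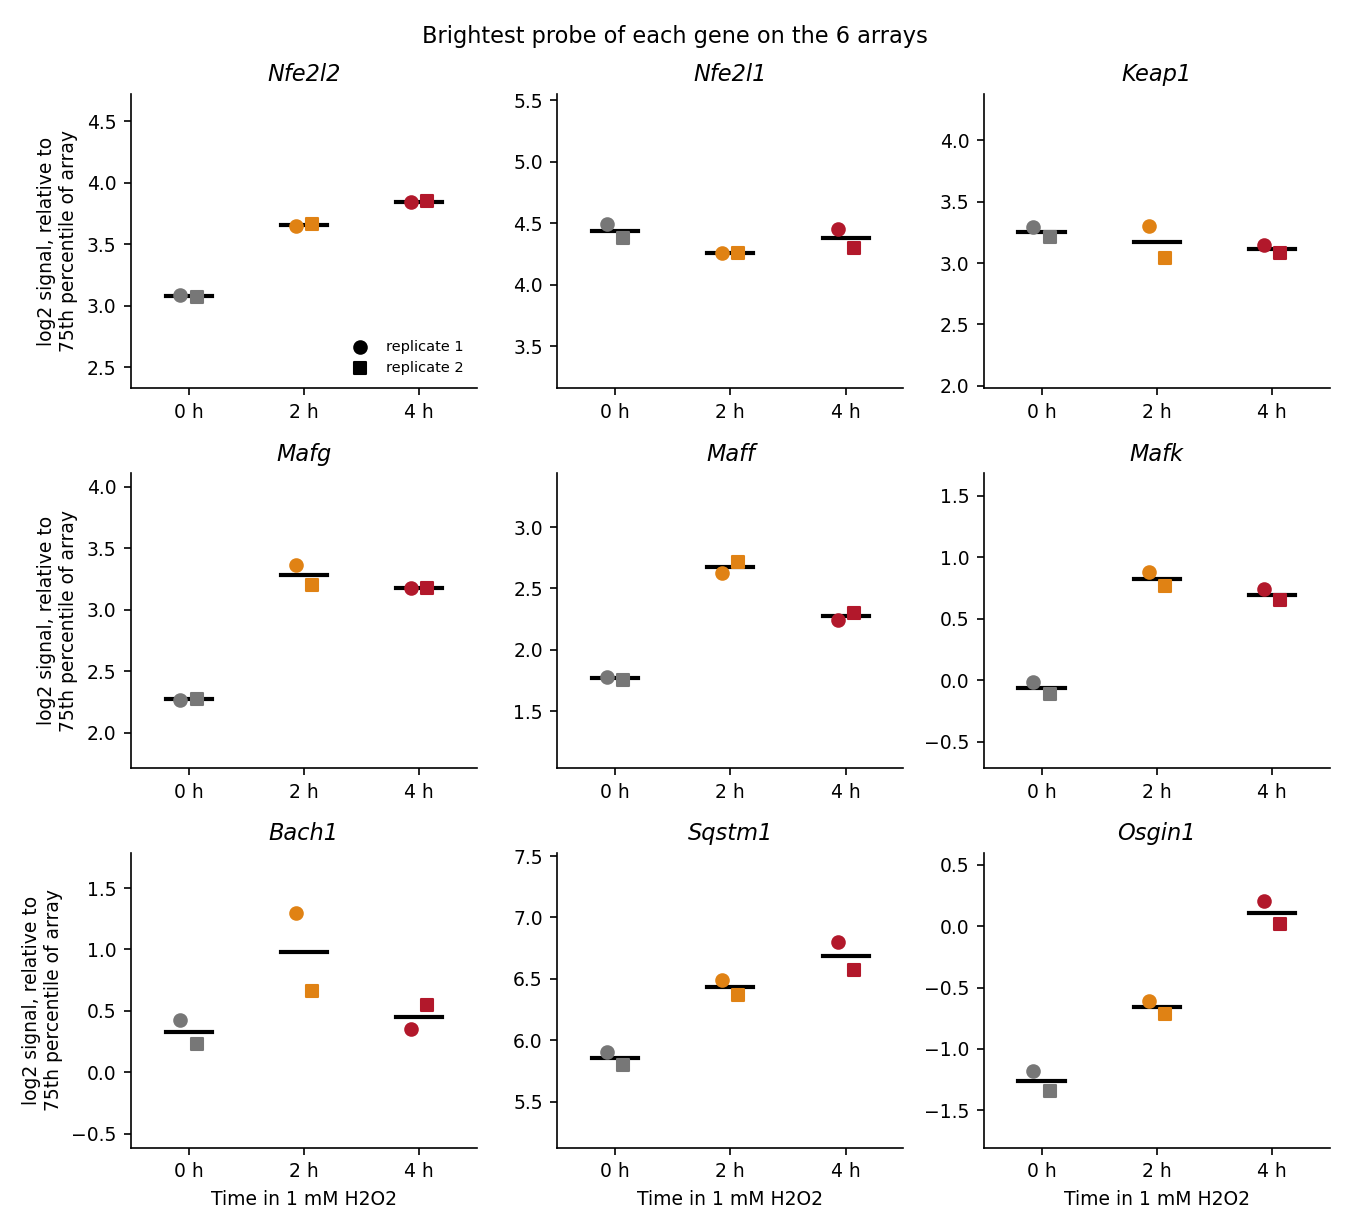
The log2 signal of the brightest probe, relative to the 75th percentile of its array, is plotted for each gene on the 6 arrays at 0, 2 and 4 h, with circles for replicate 1, squares for replicate 2 and bars for group means. All panels span the same number of log2 units. Nfe2l2, Mafg, Maff, Mafk, Sqstm1 and Osgin1 lie above the untreated cells at both times, and the Bach1 replicates at 2 h lie at 1.29 and 0.66.

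Nfe2l2, the gene of the activator itself, had log2 signals of 3.08 and 3.07 in untreated cells, 3.65 and 3.67 after 2 h and 3.84 and 3.85 after 4 h on its brightest probe, which was designed to RefSeq transcript NM_010902. Both treated groups lay above the untreated cells with no overlap, and the 2 arrays of each group were within a few hundredths of each other. The increase was 0.58 ± 0.05 at 2 h (log2, SE, n = 2 arrays per group; 1.50-fold; limma adjusted p = 0.00246) and 0.77 ± 0.05 at 4 h (1.71-fold; adjusted p = 0.00132). Within slides 1 and 2 it was 0.56 and 0.60 at 2 h, and 0.76 and 0.78 at 4 h. Relative to the median of all genes the change of Nfe2l2 was 0.46 at 2 h and 0.70 at 4 h. The 2 h call was lost without scaling (0.24, adjusted p = 0.0946), under spike-in scaling (0.13, adjusted p = 0.126) and under normexp background correction (0.54, adjusted p = 0.0701), while the 4 h call passed in each of these.

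Nfe2l2 was the only one of the 9 genes with 4 probes. The other probe to NM_010902 read 2.34 and 2.40 in untreated cells, 2.93 and 3.04 after 2 h and 3.20 and 3.36 after 4 h, and its changes were 0.62 and 0.91. The AK031731 probe, 25.0 kb upstream of the brightest along the gene, changed by 0.84 at 2 h and 0.84 at 4 h (SE 0.07). These 3 probes of Nfe2l2 passed at both times with changes under 1 log2 unit.

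The fourth probe, to the cDNA AK029360 and 16.2 kb upstream of the brightest, gave larger changes. It read -5.34 and -5.58 in untreated cells, -3.09 and -2.94 after 2 h and -3.41 and -3.59 after 4 h, and it was not well above background in untreated replicate 1. The probe thus passed the filter for testing only through the H2O2 groups, where it was brighter, so its calls against untreated cells were favoured in advance. Its increase was 2.44 ± 0.12 at 2 h (5.44-fold; adjusted p = 0.000556) and 1.96 ± 0.12 at 4 h (3.90-fold; adjusted p = 0.00100). Within slides the increase was 2.25 and 2.64 at 2 h, and 1.93 and 1.99 at 4 h. Under normexp background correction it was 1.12 at 2 h, and the call was lost (adjusted p = 0.0579), while at 4 h it was 1.27 and passed (adjusted p = 0.0332). Under normexp with quantile normalization it was 0.80 at 2 h and 0.56 at 4 h, and both passed. Both normexp alternatives also added an offset of 50 to each spot. The size of the change on this probe thus depended on the processing, and the parts of the correction and the offset were not separated. No source used here says which transcript form this probe measures.

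**Figure D2:**
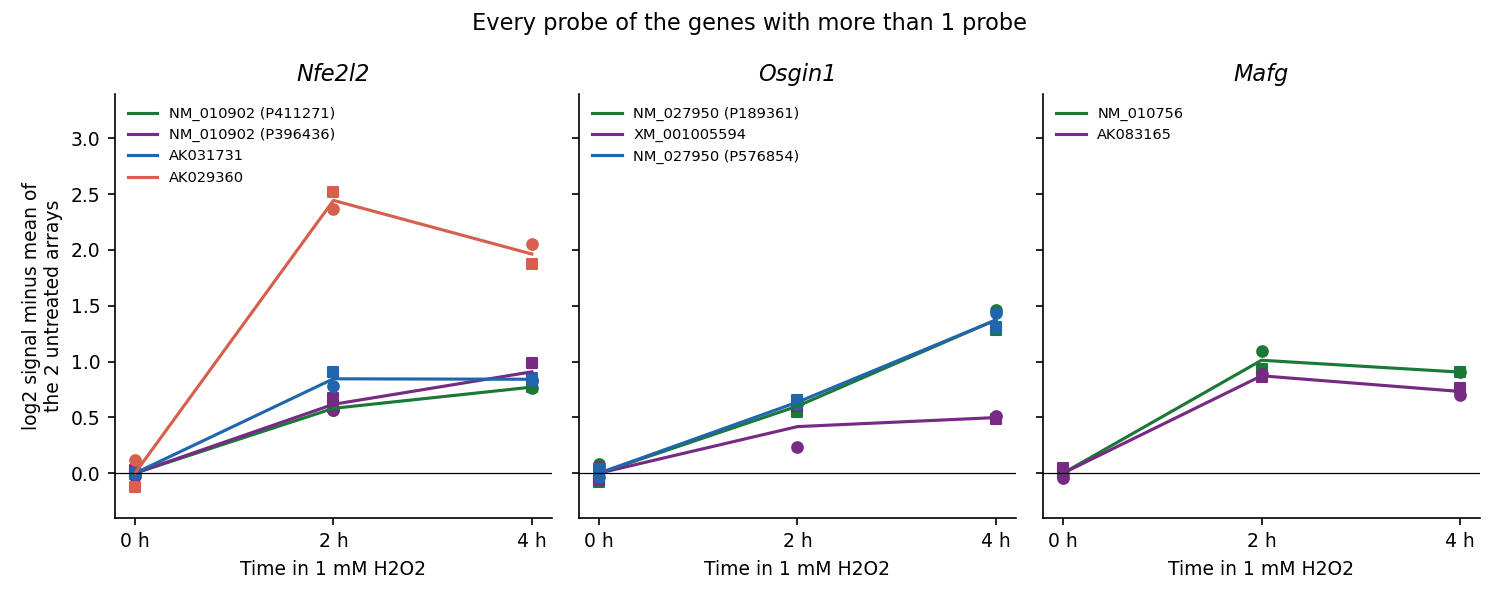
For the 3 genes with more than 1 probe, the log2 signal of each probe minus its mean in the 2 untreated arrays is plotted against time in H2O2, with circles for replicate 1, squares for replicate 2 and lines through group means. The AK029360 probe of Nfe2l2 reaches 2.44 at 2 h while its other probes stay below 1, and the third probe of Osgin1 stays near 0.50 at 4 h.

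Nfe2l1 encodes Nrf1, a membrane-bound relative of Nrf2 that is best known for raising proteasome genes when proteasomes are blocked. Its probe read 4.49 and 4.38 in untreated cells, 4.25 and 4.26 after 2 h and 4.46 and 4.30 after 4 h. The 2 h arrays lay just below both untreated arrays and the 4 h arrays overlapped them. The differences were -0.18 ± 0.08 at 2 h (adjusted p = 0.160) and -0.06 ± 0.08 at 4 h (adjusted p = 0.614), with within-slide values of -0.24 and -0.12 at 2 h and of -0.04 and -0.08 at 4 h. The call for Nfe2l1 depended on the scaling: it passed as lower at 2 h under quantile normalization (-0.41, adjusted p = 0.00954), under normexp with quantile normalization (-0.42, adjusted p = 0.00220), without scaling (-0.52) and under spike-in scaling (-0.63). It passed as lower at 4 h under the same 4 alternatives (-0.25, -0.27, -0.32 and -0.32, adjusted p from 0.00941 to 0.0329), and under spike-in scaling it was higher at 4 h than at 2 h (0.31, adjusted p = 0.0371).

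Keap1 encodes the sensor that holds Nrf2 for degradation. Its probe read 3.29 and 3.21 in untreated cells, 3.30 and 3.04 after 2 h and 3.15 and 3.08 after 4 h. The groups overlapped at 2 h, and at 4 h both arrays lay below the untreated ones. The differences were -0.09 ± 0.11 at 2 h (95% interval -0.36 to 0.19; adjusted p = 0.556) and -0.14 ± 0.11 at 4 h (-0.42 to 0.14; adjusted p = 0.349), and within slides they were 0.00 and -0.18 at 2 h and -0.15 and -0.13 at 4 h. Keap1 passed as lower at 2 h without scaling (-0.42, adjusted p = 0.0380) and under spike-in scaling (-0.54, adjusted p = 0.0102). It also passed as lower at 4 h without scaling (-0.40, adjusted p = 0.0443) and under spike-in scaling (-0.40, adjusted p = 0.0310).

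Sqstm1 encodes p62, which binds Keap1 through a short motif and which is itself a target of Nrf2. It read 5.91 and 5.80 in untreated cells, 6.49 and 6.37 after 2 h and 6.80 and 6.57 after 4 h. No treated array overlapped the untreated ones. The increase was 0.58 ± 0.11 at 2 h (1.50-fold; adjusted p = 0.0161; within slides 0.59 and 0.57) and 0.84 ± 0.11 at 4 h (1.79-fold; adjusted p = 0.00541; within slides 0.90 and 0.78). At 2 h the Sqstm1 call was lost under median centring (0.38), without scaling (0.24), under spike-in scaling (0.13) and under normexp (0.54). It was also lost in each of the fits that left out 1 untreated or 2 h array (adjusted p from 0.0550 to 0.0826), without a filter on dim probes (adjusted p = 0.0535) and in an ordinary linear model (adjusted p = 0.0525), which makes 10 of 21 alternatives. At 4 h it was lost under normexp (0.68, adjusted p = 0.0665).

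The 3 small Maf genes, whose proteins pair with Nrf2 or Bach1 on DNA, rose by 0.89 to 1.01 at 2 h. Mafg read 2.27 and 2.28 in untreated cells, 3.37 and 3.20 after 2 h and 3.18 and 3.18 after 4 h on its brightest probe. Its increase was 1.01 ± 0.08 at 2 h (2.02-fold; adjusted p = 0.00139; within slides 1.10 and 0.92) and 0.91 ± 0.08 at 4 h (1.87-fold; adjusted p = 0.00196; within slides 0.91 and 0.90). The other Mafg probe, to AK083165, read -0.17 and -0.08 in untreated cells, 0.76 and 0.73 after 2 h and 0.57 and 0.64 after 4 h. It passed as higher too, by 0.87 at 2 h and 0.73 at 4 h.

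Mafk read -0.02 and -0.12 in untreated cells, 0.88 and 0.77 after 2 h and 0.74 and 0.65 after 4 h. Its increase was 0.89 ± 0.08 at 2 h (1.85-fold; adjusted p = 0.00210; within slides 0.89 and 0.88) and 0.76 ± 0.08 at 4 h (1.69-fold; adjusted p = 0.00323; within slides 0.75 and 0.76). For both Mafg and Mafk, the treated arrays lay well above the untreated ones and the times lay close together. Their calls at 2 h and 4 h held under all 21 alternatives, and their changes relative to the median of all genes were 0.89 and 0.77 at 2 h.

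Maff, a small Maf known from human cells to be induced by inflammatory signals, lay lower at 4 h than at 2 h. It read 1.78 and 1.75 in untreated cells, 2.63 and 2.71 after 2 h and 2.25 and 2.30 after 4 h, so the 3 times did not overlap and the 4 h arrays lay between the other groups. The increase was 0.90 ± 0.06 at 2 h (1.87-fold; adjusted p = 0.00121; within slides 0.85 and 0.96) and 0.51 ± 0.06 at 4 h (1.42-fold; adjusted p = 0.00538; within slides 0.46 and 0.55). The 2 h call for Maff held under all 21 alternatives, while the 4 h call was lost without scaling (0.25, adjusted p = 0.125) and under normexp (0.39, adjusted p = 0.0789).

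Bach1 encodes the haem-binding repressor that occupies antioxidant response elements with small Mafs, and Hmox1 is its best known target. It read 0.42 and 0.23 in untreated cells, 1.29 and 0.66 after 2 h and 0.36 and 0.55 after 4 h. The 2 h arrays lay above the untreated ones but 0.63 apart from each other, and the 4 h arrays overlapped the untreated ones. The differences were 0.65 ± 0.23 at 2 h (95% interval 0.05 to 1.26; adjusted p = 0.0882) and 0.13 ± 0.23 at 4 h (-0.48 to 0.73; adjusted p = 0.690). Within slides 1 and 2 they were 0.87 and 0.44 at 2 h, and -0.07 and 0.32 at 4 h. Without 2 h replicate 2 the Bach1 difference at 2 h was 0.97, and for 4 h against 2 h it was -0.84. Without 2 h replicate 1 the same differences were 0.34 and -0.21. Either fit leaves 1 array at 2 h and no measure of the spread there, so it cannot say which array is nearer the true level.

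Osgin1, an oxidative stress response gene described in human cells as a target of Nrf2, was the member with the largest change at 4 h among the brightest probes. It read -1.18 and -1.34 in untreated cells, -0.61 and -0.71 after 2 h and 0.20 and 0.02 after 4 h, and the 3 times did not overlap. The increase was 0.60 ± 0.10 at 2 h (1.52-fold; adjusted p = 0.0131; within slides 0.57 and 0.63) and 1.37 ± 0.10 at 4 h (2.59-fold; adjusted p = 0.00146; within slides 1.38 and 1.36). The 2 h call for Osgin1 was lost under median centring (0.40), without scaling (0.26), under spike-in scaling (0.15) and under normexp (0.55). It was also lost without untreated replicate 2 (0.52), without 2 h replicate 1 (0.55) and without 2 h replicate 2 (0.65), whereas the 4 h call held under all 21 alternatives.

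The other probe to NM_027950 gave nearly the same changes of Osgin1, 0.64 at 2 h and 1.37 at 4 h. The third probe, XM_001005594, was tied to Osgin1 by the older name alone. It read -3.28 and -3.40 in untreated cells, -3.10 and -2.74 after 2 h and -2.83 and -2.85 after 4 h. Its difference was 0.42 ± 0.14 at 2 h (adjusted p = 0.0722) and 0.50 ± 0.14 at 4 h (adjusted p = 0.0419). At 4 h this is less than on the other two, but the difference between probes was not tested. The 4 h call of this probe was lost under 13 of its 19 alternatives.

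**Figure D3:**
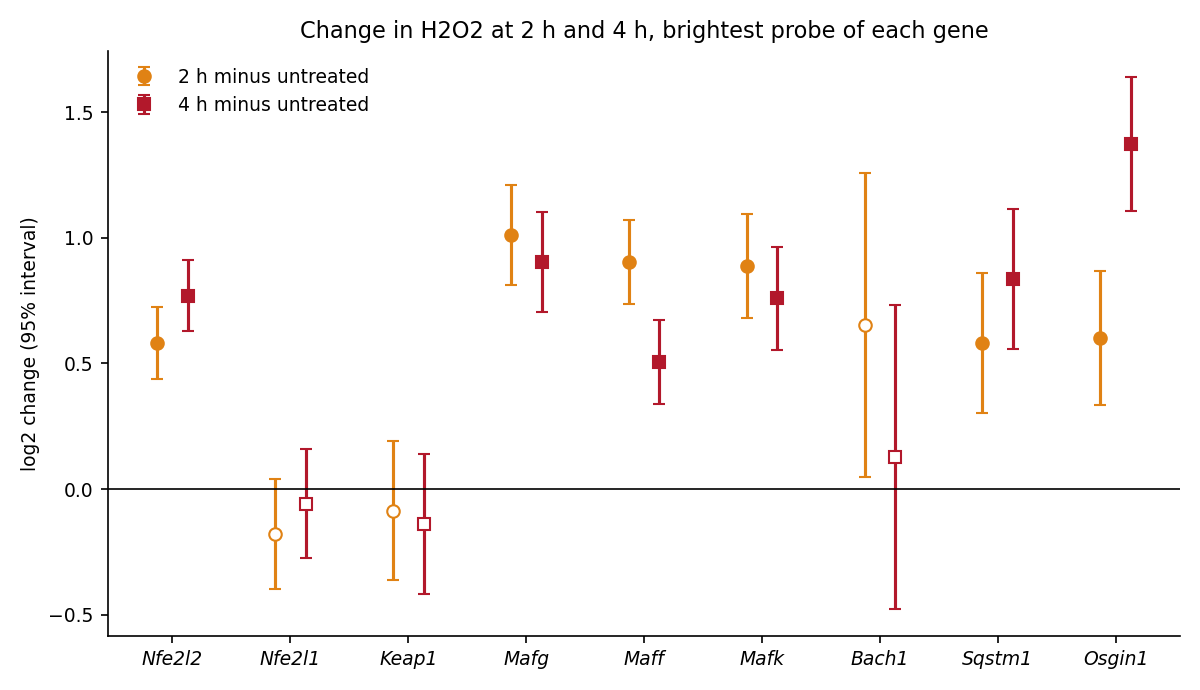
The log2 change of the brightest probe of each gene is plotted for 2 h minus untreated (circles) and 4 h minus untreated (squares), with 95% intervals from the limma fit. Filled marks passed at an adjusted p under 0.05. The intervals of Bach1 are the widest, from 0.05 to 1.26 at 2 h, and Osgin1 stands highest at 4 h, at 1.37.

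Between the times, 2 of the 9 genes passed: Osgin1 was higher at 4 h than at 2 h and Maff was lower. By the same rule 28.8% of all genes were called, 13.1% higher and 15.7% lower, so these counts lie near the background. Osgin1 rose by a further 0.77 ± 0.10 (1.71-fold; adjusted p = 0.00880; within slides 0.81 and 0.74), and the difference was not past the threshold without 2 h replicate 2 (0.72, adjusted p = 0.0510) or under normexp (0.70, adjusted p = 0.0586). Maff fell by 0.40 ± 0.06 on the log2 scale (adjusted p = 0.0145; within slides -0.38 and -0.41). The Maff call was lost without scaling (-0.32), under spike-in scaling (-0.21), under normexp (-0.47), without a filter on dim probes (-0.40) and without any 1 of the 2 h or 4 h arrays (adjusted p from 0.0511 to 0.0743). Nfe2l2 differed by 0.19 ± 0.05 (adjusted p = 0.0627) and Sqstm1 by 0.26 ± 0.11 (adjusted p = 0.144). With the replicate number as a block these 2 passed, with adjusted p of 0.0408 for Nfe2l2 and 0.0386 for Sqstm1, and the count of regulators higher at 4 h than at 2 h was 3. Mafg (-0.11), Mafk (-0.13), Keap1 (-0.05), Nfe2l1 (0.12) and Bach1 (-0.53, adjusted p = 0.162) did not pass. Of the 15 probes, 2 were higher and 2 lower between the times, when 28.1% of all probes were called (13.3% higher and 14.8% lower), and the lower pair was Maff and the AK029360 probe of Nfe2l2 (-0.48, adjusted p = 0.0465). The call of the AK029360 probe was lost under 13 of its 18 alternatives, and the sign turned under normexp (0.15).

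**Figure D4:**
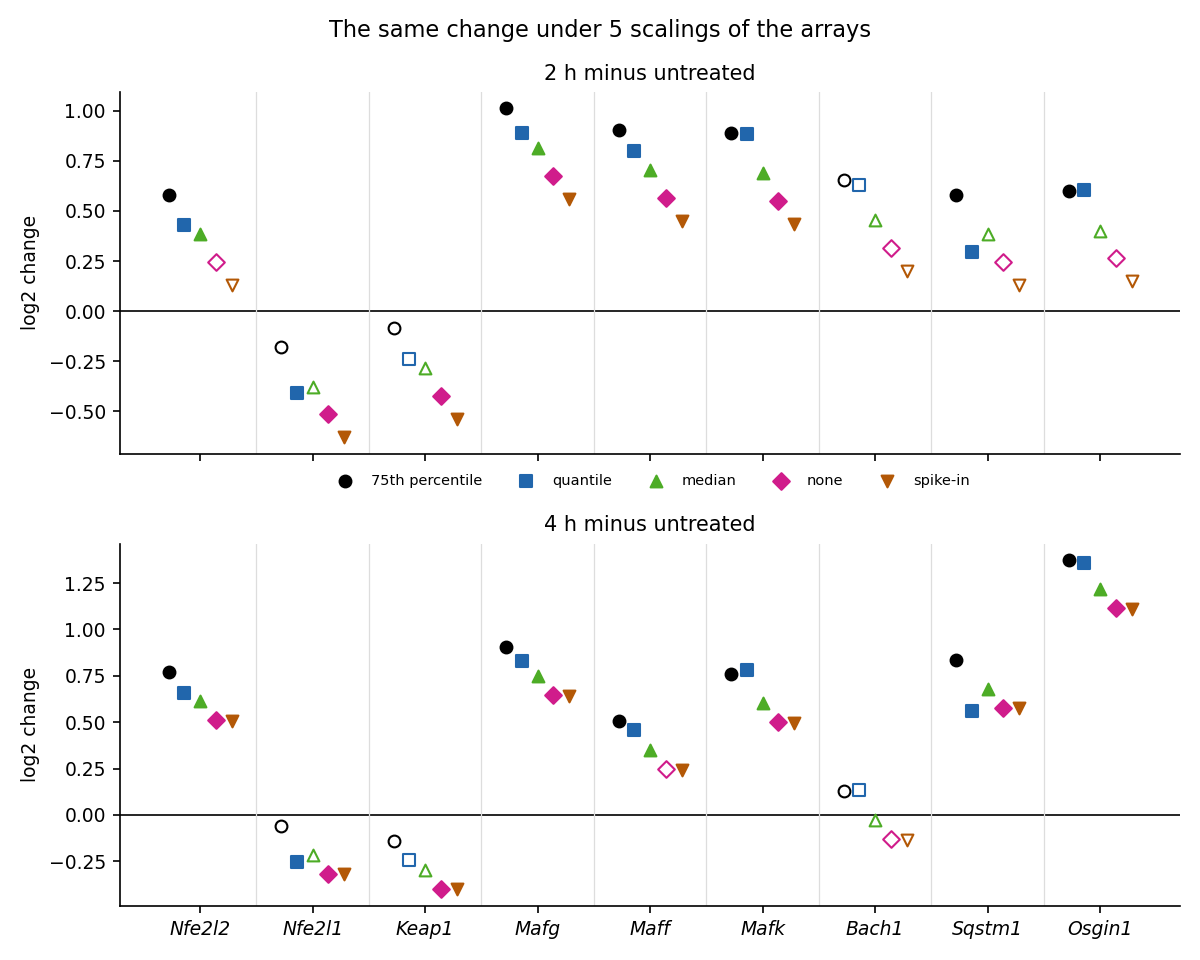
The log2 change of the brightest probe of each gene is plotted under 5 ways of scaling the arrays, above for 2 h minus untreated and below for 4 h minus untreated, and filled marks passed at an adjusted p under 0.05. Mafg, Maff and Mafk stay above 0.4 and pass at 2 h under each scaling, while Nfe2l2 drops to 0.13 under spike-in scaling and Nfe2l1 and Keap1 become lower calls there.

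The genes whose time course lay closest to Mafg and Osgin1, the members with a change of at least 1 log2 unit on the brightest probe, were found over the 6 arrays among 13569 genes with a symbol. The measure was the root mean square difference of log2 values centred on the untreated mean. Closest to Mafg were Endov (0.0462), Noct (0.0521) and Dqx1 (0.0637). Endov differed from untreated cells by 0.96 at 2 h and 0.95 at 4 h. Closest to Osgin1 were Ppm1d (0.0768), Perp (0.0890) and Pik3r5 (0.0896). Ppm1d differed by 0.61 at 2 h and 1.36 at 4 h.

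The remaining genes of the pathway were read from 6 lists, of which 74 genes were tested. Among the 28 enzymes and carriers known as Nrf2 targets, 16 were higher and 1 lower at 2 h, and 21 were higher and 1 lower at 4 h, with medians of 0.35 and 0.47. Of all genes, 22.7% were higher at 2 h and 23.9% at 4 h. Hmox1, which breaks down haem, was 2.48 higher at 2 h and 2.41 higher at 4 h. Slc7a11, the cystine carrier, was higher by 1.62 at 2 h and 1.50 at 4 h on its brightest probe. Its other probes gave 1.09 and 0.96, which passed, 1.69 and 0.53, of which the 4 h value did not pass, and 0.52 and 0.42, neither of which passed. Srxn1, which restores oxidised peroxiredoxins, was higher by 1.15 at 2 h and 1.40 at 4 h. Gsta3, a glutathione transferase, was higher by 0.67 and 0.89. The single lower gene at both times, named after its values were seen, was Abcc4, an exporter of conjugates, by its brightest probe (-0.28 and -0.63), while its other probe did not pass (-0.03 and -0.13). Under spike-in scaling the balance of calls over the 6 lists together turned at 2 h, with 4 higher and 28 lower against 29 higher and 6 lower under the 75th percentile. The same held for all probes called at 2 h, of which 12.3% were higher under spike-in scaling and 59.4% under the 75th percentile.

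Partners of p62 in autophagy were read next. Of 11 receptors and Atg8-family proteins 5 were higher and 1 lower at 2 h, and 7 were higher and 2 lower at 4 h, with medians of 0.30 and 0.47, against 22.7% higher and 14.8% lower among all genes at 2 h and 23.9% and 18% at 4 h. Gabarapl1, which encodes an Atg8-family protein of autophagosome membranes, was higher by 0.68 at 2 h and 1.02 at 4 h, Gabarapl2 by 0.45 and 0.57, and Map1lc3a by 0.46 and 0.51. Wdfy3, a scaffold for the clearance of aggregates, was lower by its brightest probe (-0.31 and -0.54), but another of its probes changed by -1.07 at 2 h and 0.34 at 4 h and passed at both times.

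The machinery that controls the amount of Nrf2 protein had medians near those of all genes, which were 0.12 at 2 h and 0.07 at 4 h. Of 17 genes of the Keap1 ligase and of other routes of Nrf2 turnover, 6 were higher and 2 lower at 2 h, and 4 were higher and 2 lower at 4 h, with medians of 0.13 and 0.11. The 8 of 17 called at 2 h and the 6 of 17 called at 4 h lie near the shares of all genes, 37.5% and 41.9%. Palb2, a DNA repair protein that also binds Keap1, was lower by its brightest probe (-1.18 and -0.62). That probe was dim, with means of -3.98 in untreated cells, -5.16 at 2 h and -4.60 at 4 h. It was well above background on 5 of the 6 arrays. The other Palb2 probe also passed as lower (-1.50 and -1.40), and both were matched by an older name only. Syvn1, a ubiquitin ligase of the endoplasmic reticulum that can target Nrf2, was lower at both times (-1.03 and -0.33). Park7, a redox-responsive protein reported to stabilise Nrf2, passed as higher at 2 h (0.38), and Skp1, a ligase subunit, was higher at both times (0.31 and 0.41).

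The 3 shorter lists are read against the same shares of all genes. Of 5 other cap'n'collar and Maf genes tested, Nfe2l3 was higher (0.52) at 2 h, and none passed at 4 h by its brightest probe, where in limma's fit none had an unadjusted p under 0.05. The 4 probes of Maf, a large Maf factor, disagreed at 4 h. Its brightest probe did not pass (-0.15), 2 probes matched to Maf by accession passed as lower (-0.91, adjusted p = 0.00248, and -0.83, adjusted p = 0.0272), and another passed as higher (0.35, adjusted p = 0.0150). At 2 h only the first of the lower Maf probes passed (-0.62, adjusted p = 0.00723). Nfe2 and Nrl were each well above background on 1 array and were not tested. Of 7 genes for the processing of Nrf1, 1 was called at 2 h and 3 at 4 h. The ligase subunit Fbxw7 was higher at both times (0.68 and 1.03). At 4 h Ogt, which adds sugar to nuclear proteins, was higher by 0.39 on its brightest probe, although its other probe (0.12) did not pass, and Ngly1, which removes sugar chains from Nrf1, was lower (-0.54). Of 6 coactivators, 1 was called at each time, Chd6 as lower at 2 h (-0.56) and Ncoa1 as lower at 4 h (-0.53). The probes of Chd6 disagreed at 4 h, where one passed as higher (0.54), another as lower (-0.63) and the brightest did not pass (-0.08).

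**Figure D5:**
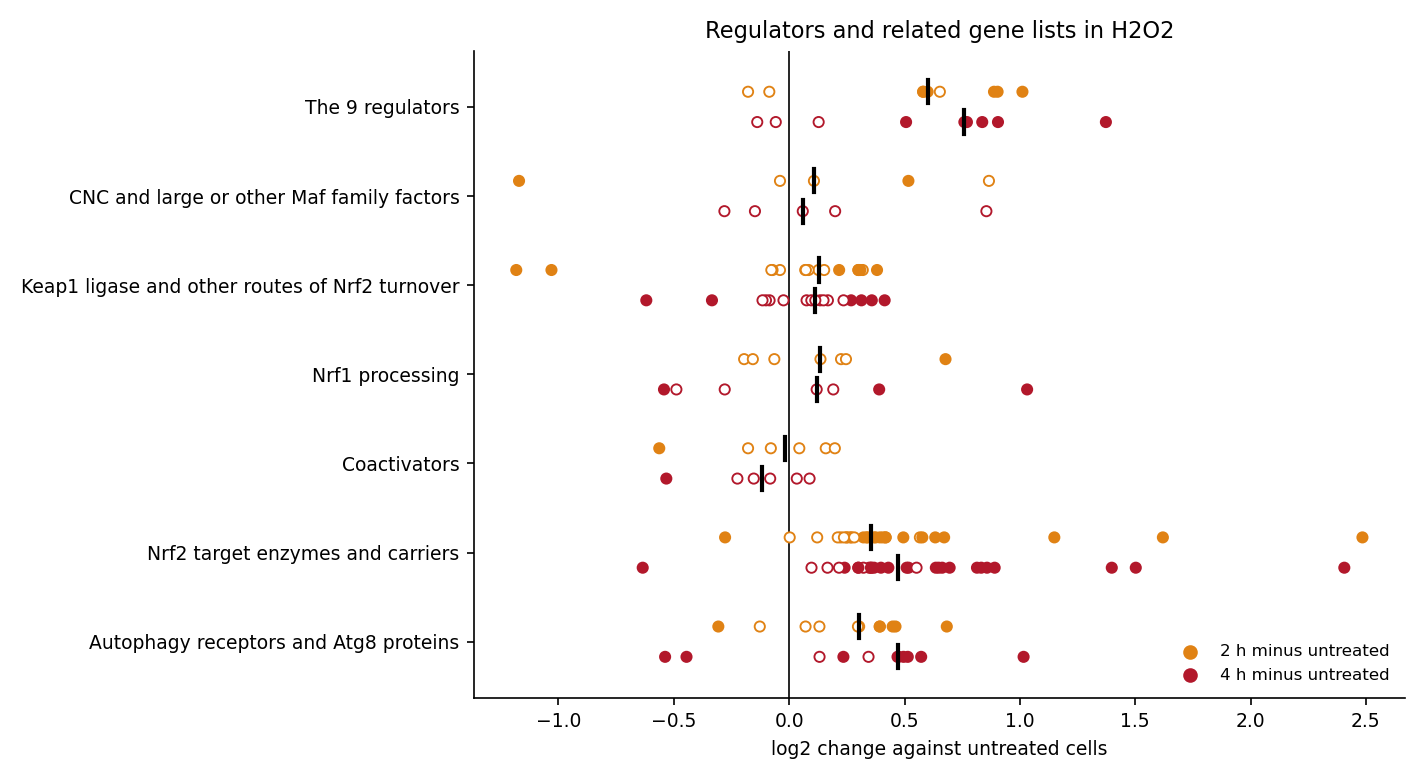
Each mark is the log2 change of 1 gene, by its brightest probe, at 2 h minus untreated (upper line of each list) and 4 h minus untreated (lower line), for the 9 regulators and the 6 related lists. Filled marks passed at an adjusted p under 0.05 and vertical bars are list medians, which are 0.60 and 0.76 for the regulators and 0.35 and 0.47 for the target enzymes and carriers.

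All 12 fibroblast markers were well above background on every array. Their summed signal, in units of the 75th percentile, was 1250 to 1262 at 2 h and 1172 to 1228 at 4 h, against 1014 to 1062 in untreated cells. All marker sums depend on the scaling. The 75th percentile itself was 826 and 883 on the untreated arrays, 675 and 677 at 2 h, and 674 and 754 at 4 h. Marker counts are set against the shares of all genes, 22.7% higher and 14.8% lower at 2 h, and 23.9% and 18% at 4 h. Of the 12 fibroblast markers, 5 were higher and 1 lower at 2 h, and 4 were higher and 1 lower at 4 h. The lower one, named after its values were seen, was Pdgfra, a growth factor receptor, by its brightest probe (-1.08 and -0.70), while its other probe did not pass (0.04 at both times). Some markers of other cell types moved with H2O2. Of 6 endothelial markers, 3 were well above background on all arrays, with sums of 0.872 to 0.978 at 2 h and 0.882 to 0.893 at 4 h, against 0.459 to 0.525 in untreated cells, and Cdh5 was above it nowhere. Of the 5 endothelial markers tested, 3 passed as higher at 2 h and 2 at 4 h. Among the 3, Vwf was well above background on all 6 arrays (1.81 at 2 h and 2.22 at 4 h), Cldn5 on 3 and Pecam1 on 2. The filter needs only 1 group well above background, so Cldn5 and Pecam1 could enter the test through the group where they were bright. Their calls are therefore not read as a change. Of 6 blood markers 4 were above background on all arrays, with sums of 2.08 to 2.19 at 2 h, 2.07 to 2.11 at 4 h and 1.68 to 1.71 in untreated cells, and 3 of 5 tested passed as higher at both times. Of 5 epithelial markers 3 were, with sums of 3.76 to 4.14 at 2 h, 3.62 to 4.11 at 4 h and 2.94 to 3.25 in untreated cells, and 3 of 4 tested passed as higher at both times. Neural markers (3 of 5) summed to 5.93 to 6.19 at 2 h, 5.0 to 5.32 at 4 h and 5.14 to 5.17 in untreated cells, and of the 3 neural markers tested Nes was higher at both times (0.40 and 0.36), while Tubb3 (-0.30) and Map2 (-0.84) were lower at 4 h. Muscle markers (4 of 5) summed to 29.7 to 39.1 at 2 h, 28.1 to 32.4 at 4 h and 26.6 to 35.1 in untreated cells, and 2 of 4 tested passed as higher at both times. Epcam, Sox2 and Myod1 were above background nowhere. The part of other cell types in the changes of the regulators was not tested.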

How the data were processed

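Expression was measured in 6 samples of MEFs on one-colour Agilent arrays, 2 per group. Per the file headers, the authors used protocol GE1-v5_95_Feb07 of Feature Extraction 9.5.3.1. Each deposited file gives intensity per spot, and of its columns the background-corrected processed signal was used. The value table, deposited as intensity too, equals that signal within 0.0005. The log2 values were computed here from the deposited intensity, with each array's 75th percentile over 43379 non-control spots subtracted. Outlier-flagged spots were left out and repeated spots averaged. Signal strength stands in for depth, and the 75th percentile was 674 to 883, between 57.3% and 68.0% of spots were well above background and none was saturated. The small number of arrays limits the precision.

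A probe was tested when 1 or more groups had both arrays well above background. The fit used limma (version 3.58.1; R version 4.3.3; version 1.17.8 of data.table for reading) on the 6 arrays together, with moderated variances (1.69 prior and 3 residual degrees of freedom) and Benjamini-Hochberg adjustment over all probes. The script was tested on simulated data. P-values rest on the spread between the 2 arrays of a group, pooled over the 3 groups and moderated across probes. Replicate number equals slide, so 1 fit with a block covers both. Alternatives changed the scaling, background correction, filter, probe summary, samples and model.

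The 9 regulators and the pathway lists were chosen with earlier results of these data known. All regulators are named with every probe, up to 4 genes per list by the largest change among those that passed at 2 h or 4 h, and 3 genes nearest each regulator with a change of at least 1. Some genes that these rules cover are not reported here. No source used here names the genome build of the probe positions, and only distances between probes are printed.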

Additional observations from a re-analysis of the deposited data

Results flagged for a closer look

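Both probes of Osgin1 that match its RefSeq transcript differed between the H2O2 times by the direct test of 4 h against 2 h in the limma fit, the brighter by 0.77 ± 0.10 (log2, SE; adjusted p = 0.00880) and the other by 0.74 ± 0.07 (adjusted p = 0.00486), higher at 4 h on both slides. Maff differed in the opposite direction, by -0.40 ± 0.06 (adjusted p = 0.0145), lower at 4 h on both slides. The AK029360 probe of Nfe2l2 differed by -0.48 ± 0.12 (adjusted p = 0.0465), also lower at 4 h on both slides, while the other 3 probes of Nfe2l2, at 0.19, 0.29 and -0.0041, did not pass. With 2 arrays per group no test for a single outlying array was made.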

How the results depend on the processing

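The 6 regulators higher at 4 h were 6 under every fit that left out 1 array. At 2 h those fits gave 4 to 6 higher and 0 lower, and for 4 h against 2 h they gave 0 to 1 higher and 0 to 1 lower. In the pathway lists they gave 10 to 26 higher and 2 to 6 lower at 2 h (29 and 6 with all arrays), 17 to 27 and 4 to 9 at 4 h (34 and 7), and 1 to 4 and 1 to 3 for 4 h against 2 h (8 and 4). The same fits called 18.4% to 32.1% of all probes at 2 h and 22.2% to 33.5% at 4 h. For 4 h against 2 h they called 12.2% to 21.8%. Each of them left 1 array in a group, which limits what its calls can say. In the main fit 35.7% of all probes were called at 2 h, 40.6% at 4 h and 28.1% for 4 h against 2 h. Of these calls 59.4%, 56.7% and 47.3% were higher. Below, a count under an alternative is printed only where it moved by more than a set ratio from the main fit. Smaller shifts are not printed as counts, but regulators did lose calls there. These include Sqstm1 and Osgin1 at 2 h under median centring and Maff at 4 h without scaling. Sqstm1 and Maff at 4 h under normexp with the 75th percentile are also among them. Under quantile normalization 1 regulator was lower at 2 h, 1 lower at 4 h and 2 higher for 4 h against 2 h, and 16 pathway genes were higher at 2 h. In the same order of comparisons, 32.3%, 39.6% and 28.4% of all probes were then called, with 43.0%, 45.6% and 51.2% of calls higher. Under median centring 9 pathway genes were higher and 10 lower at 2 h, 16 higher at 4 h and 2 lower for 4 h against 2 h. Here 31.8%, 36.6% and 22.8% of all probes were called, with 30.4%, 34.9% and 57.6% of calls higher. Without scaling 3 regulators were higher and 2 lower at 2 h, 2 lower at 4 h, and 2 higher and 0 lower for 4 h against 2 h. The pathway genes then numbered 6 higher and 13 lower at 2 h, 11 and 12 at 4 h, and 2 lower for 4 h against 2 h. Of all probes 38.3%, 38.7% and 19.4% were called without scaling, with 19.8%, 23.9% and 62.3% of calls higher. Under spike-in scaling 3 regulators were higher and 2 lower at 2 h, 2 lower at 4 h, and 4 higher and 0 lower for 4 h against 2 h. The pathway genes were 4 and 28 at 2 h, 15 and 12 at 4 h, and 26 and 0 for 4 h against 2 h. All probes moved the same way, with 59.5%, 45.1% and 27.6% called and 12.3%, 23.5% and 76.7% of calls higher. Normexp with the 75th percentile called far fewer probes in all (6.55% at 2 h, 10.7% at 4 h and 3.98% for 4 h against 2 h). It left 3 regulators higher at 2 h and 0 higher and 0 lower for 4 h against 2 h, with 6 and 2 pathway genes at 2 h, 10 and 1 at 4 h, and 0 and 0 for 4 h against 2 h. Normexp with quantile normalization gave 1 regulator lower at 2 h, 1 lower at 4 h and 3 higher for 4 h against 2 h, and 18 pathway genes higher at 2 h and 15 for 4 h against 2 h. It called 34.4%, 41.5% and 30.6% of all probes, with 44.1%, 45.7% and 49.9% of calls higher. Without a filter on dim probes 13 pathway genes were higher at 2 h, 19 at 4 h, and 2 higher and 0 lower for 4 h against 2 h, where 0 regulators were lower. Only 12.9%, 15.2% and 8.21% of all probes were called in that fit. Averaging all tested probes of a gene left 3 pathway genes lower at 2 h, when 38.6% of all genes were called. Fits on the 4 arrays compared gave 4 pathway genes higher for 4 h against 2 h, where 21.8% of all probes were called. An ordinary linear model gave 19 pathway genes higher at 2 h and 5 for 4 h against 2 h, where 2 regulators were higher. It called 27.3% of all probes at 2 h and 18.3% for 4 h against 2 h. Each fit that left out 1 array also called a smaller share of all probes than the main fit, in every comparison. The cause of these shifts was not tested.

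With the replicate number, which is also the slide, as a block, 3 regulators were higher for 4 h against 2 h and 16 pathway genes were higher and 8 lower. Of all probes 37.0% were then called for 4 h against 2 h, 47.5% at 2 h and 50.3% at 4 h. The counts of regulators at 2 h and 4 h were 6 higher and 0 lower, as without the block. Deviations of same-numbered arrays correlated at 0.19 to 0.21, and the labels do not say that a number marks a shared culture.

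Several differences that did not pass changed sign. Bach1 at 4 h was -0.0284 under median centring, -0.132 without scaling and -0.134 under spike-in scaling. For 4 h against 2 h, Keap1 was 0.0249 without scaling, 0.138 under spike-in scaling and 0.000715 under normexp with quantile normalization. The AK031731 probe of Nfe2l2 was 0.0376 under median centring, 0.0732 without scaling, 0.186 under spike-in scaling and 0.00782 under normexp with the 75th percentile, and the mean of all Nfe2l2 probes was -0.00086. Under spike-in scaling Mafk was 0.0616, the Mafg probes 0.0841 and 0.04996, and the XM_001005594 probe of Osgin1 at 2 h -0.0349. Fits that left out 1 array gave Keap1 values of -0.216 to 0.0439 at 2 h and -0.182 to 0.0777 for 4 h against 2 h, and Nfe2l1 values of -0.137 to 0.0213 at 4 h. For 4 h against 2 h they gave -0.0998 to 0.261 for the XM_001005594 probe and -0.0659 to 0.0578 for the AK031731 probe. The 1 called result that turned was the AK029360 probe of Nfe2l2 for 4 h against 2 h, at 0.149 under normexp with the 75th percentile. Of the other called probe results under alternatives, 471 stayed called in the same direction and 66 were no longer past the threshold. Signal near background limits what can be said of the AK029360 probe.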
